A study of Chenopodium quinoa with 9 samples.

Results

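TSARL1 (AUR62017204) and TSARL2 (AUR62017206) are 2 basic helix-loop-helix (bHLH) transcription factor genes of quinoa (Chenopodium quinoa) that regulate the synthesis of triterpenoid saponins. Both were taken by their identifiers from the 54238 genes of the deposited tables, and both were found there. Messenger RNA was profiled in root, stem and leaf of a single type, yellow bitter quinoa, grown in an open field. Each organ had 3 libraries, each library a pool of 10 of 30 plants, and every pool gave all 3 organs, with equal replicate numbers taken to mark a pool. No sweet quinoa, flower or seed library was analysed here.

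Saponins are bitter, soap-like glycosides built on a triterpene skeleton that is made from squalene through beta-amyrin. In quinoa they accumulate above all in the outer layers of the seed, and their absence makes a line sweet. bHLH factors of this group, first described as TSAR1 and TSAR2 in the legume Medicago truncatula, bind the promoters of genes of the mevalonate and triterpene pathways and switch them on. TSARL1 is the gene linked to the difference between bitter and sweet quinoa seeds, and TSARL2 is its close relative.

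Library totals lay between 16112021 and 24846346 counts. Stem replicate 1 stood apart from the other stem libraries: over genes, its log2 CPM (counts scaled to a common library size) correlated with theirs at 0.780 to 0.806, against 0.894 between stem replicates 2 and 3. The organ labels could not be checked against marker genes, because the reference gene table matched 0 of the 54238 identifiers and no source used here names the other genes. For the same reason the other genes of saponin synthesis could not be counted, and no sequence is shown. The gene models behind the FPKM values (fragments scaled by gene length and library size) were 870 bp for TSARL1 and 879 bp for TSARL2. The other gene copies of this allotetraploid may share reads with either gene, and this was not tested.

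TSARL2 was a root gene in these plants and TSARL1 was barely detected in any organ. TSARL2 had 336 counts in the 3 root libraries together and 0 counts in all 6 stem and leaf libraries. TSARL1 had 20 counts in all 9 libraries together, 15 of them in root, 5 in stem and 0 in leaf. Among the 54238 genes, 24.8% had a lower total count than TSARL1 and 44.3% a lower total than TSARL2.

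**Figure D1:**
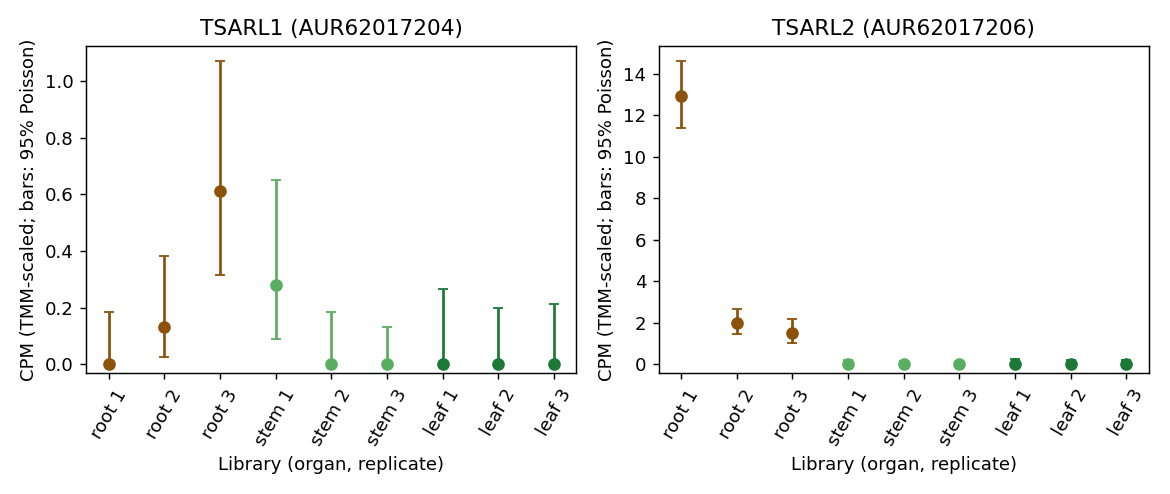
Level of TSARL1 (left) and TSARL2 (right) in each of the 9 libraries, in CPM scaled with TMM factors; bars are exact Poisson 95% intervals of the count and cover counting error only, and the axes differ between panels. TSARL2 is at 12.9, 2.01 and 1.53 CPM in root and at 0 elsewhere, while no library of TSARL1 exceeds 0.611 CPM.

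For TSARL2, the root libraries held 260 counts in replicate 1, 46 in replicate 2 and 30 in replicate 3, which is 12.9, 2.01 and 1.53 CPM with TMM scaling. All 3 root libraries lay above every stem and leaf library, and root replicate 1 lay far above the other root libraries. The root mean was 5.49 ± 6.45 CPM (SD, n = 3), or 6.48 ± 7.65 FPKM (SD, n = 3). A count of 0 was taken to allow up to 3 counts in a library. That is 0.108 to 0.168 CPM in the stem libraries and 0.162 to 0.217 CPM in the leaf libraries. The exact Poisson 95% interval of a 0 count ends somewhat higher, at 3.69 counts. Taken at 3 counts per library, stem had a mean of 0.142 CPM and leaf one of 0.184 CPM. The observed root mean was over 38-fold above this stem value and over 29-fold above this leaf value. These folds leave out the spread of the root libraries and so are not lower bounds. In bulk organs, more cells that express a gene and more RNA per cell cannot be told apart.

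TSARL2 was lower in stem than in root (edgeR, adjusted p = 0.0266) and lower in leaf than in root (edgeR, adjusted p = 0.0177). Of the 36685 genes tested, 9.27% were called lower in stem than in root and 18.7% lower in leaf than in root, so a call toward root was common in both comparisons. Root was the highest organ at 3 of 3 replicate numbers. The exact permutation test of CPM gave p = 0.10 (two-sided) for root against stem and for root against leaf, the smallest that 3 against 3 libraries allow. That test ignores the pairing by pool. Paired by pool, the exact permutation test of root against stem gave p = 0.25, the smallest that 3 pairs allow. Stem and leaf were both at 0 counts, so this depth could show no difference between them. The edgeR outcome there (adjusted p = 1) was fixed in advance and is no result. Of all genes tested, 12.2% were called between these organs in either direction. Both comparisons with root share the root libraries and so are not separate evidence.

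The call against stem was close to the threshold. It was lost without root replicate 2, where the adjusted p was 0.0635 (edgeR), within a range of 1.3e-06 to 0.0635 over all alternatives. The call against leaf held under every alternative run, with adjusted p from 2.11e-06 to 0.0409 (DESeq2 at the low end, edgeR without leaf replicate 3 at the high end). Root replicate 1 set the size of the difference. Without it the root mean was 1.77 CPM, over 12-fold above stem and over 9-fold above leaf at 3 counts per library. The adjusted p values were then 0.0471 and 0.0272 (edgeR).

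**Figure D2:**
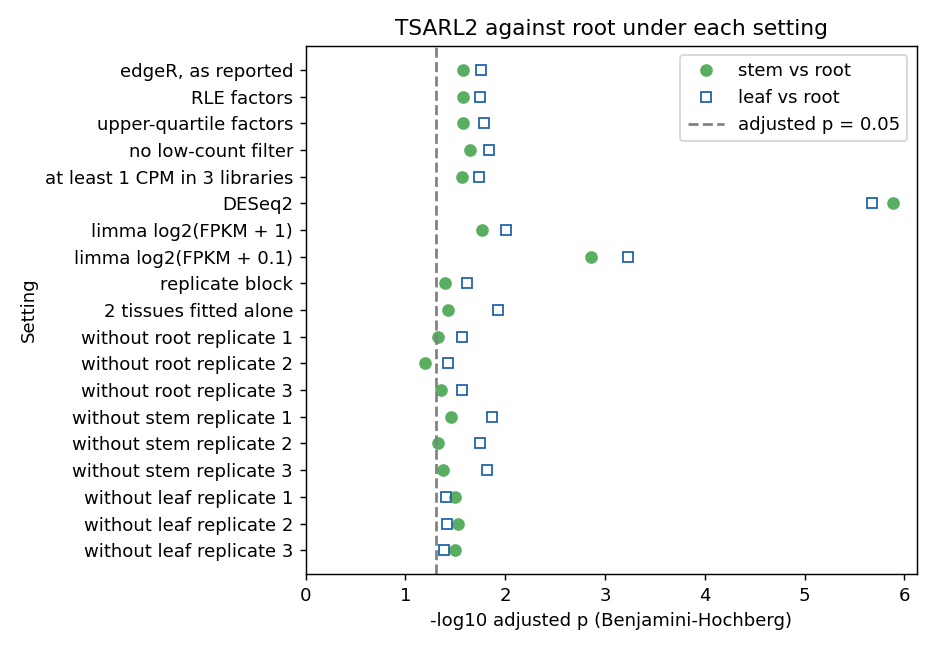
Adjusted p of TSARL2 against root under each test, scaling, filter and left-out library, as -log10 on the x axis; filled circles are stem against root, open squares leaf against root, and the dashed line is the threshold of 0.05. The single symbol left of the line is stem against root without root replicate 2, at an adjusted p of 0.0635.

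The root libraries, each from another pool of plants, varied widely in TSARL2. The exact Poisson 95% interval of the count ran from 229 to 294 in root replicate 1, from 33.7 to 61.4 in replicate 2 and from 20.2 to 42.8 in replicate 3. The intervals of replicates 2 and 3 overlapped and that of replicate 1 met neither, though such intervals leave out the variation between pools. In CPM, replicate 1 was 6.43-fold above replicate 2 and 8.47-fold above replicate 3.

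A spread of this size was rare among the tested genes with a root level. Those genes were not matched to TSARL2 in level or in having no counts outside root. Among the 31593 tested genes whose root mean reached 1 CPM, the highest root library exceeded the lowest by a median of 1.35-fold, and 99.1% of genes had a smaller ratio than TSARL2. Of the 272 other genes with a ratio at least as large, 131 were highest in root replicate 1, 21 in replicate 2 and 120 in replicate 3. Over all 31593 genes, root replicate 1 was the highest root library for 30.5%, replicate 2 for 28.6% and replicate 3 for 40.8%.

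**Figure D3:**
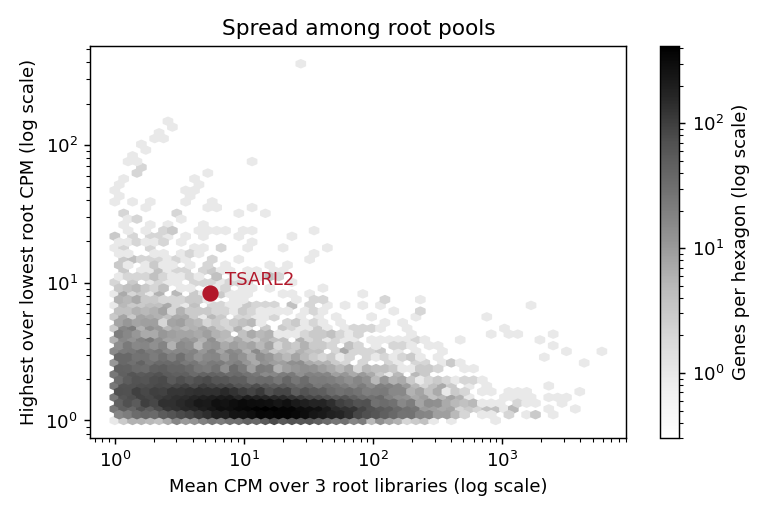
Ratio of the highest to the lowest root CPM against the mean root CPM, both on log scales, for the tested genes whose root mean reached 1 CPM; shading gives the number of genes, and the 11 genes at 0 in a root library are not drawn. TSARL2 (red) has a ratio of 8.47, against a median of 1.35.

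Relative to other genes of the same root library, TSARL2 changed from a high to a low rank between pools. Its per-length level was 15.3 FPKM in root replicate 1, above 79.8% of the 41347 genes with a value there. It was 2.36 FPKM in replicate 2, above 38.0% of 41270 genes, and 1.77 FPKM in replicate 3, above 32.3% of 39903 genes.

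TSARL1 was at the edge of detection. In root it had 0, 3 and 12 counts in replicates 1, 2 and 3 (0, 0.131 and 0.611 CPM), in stem 5, 0 and 0 counts (0.280, 0 and 0 CPM), and in leaf 0 counts in each library. The values of the 3 organs overlapped, since each organ had a library at 0. The means were 0.247 ± 0.321 CPM in root and 0.0932 ± 0.161 CPM in stem (SD, n = 3). Taken at 3 counts, its 0 in leaf allows 0.162 to 0.217 CPM in a single library. For the summed counts, the Poisson 95% interval was 0 to 3.69 in leaf and 8.4 to 24.7 in root. These intervals leave out the variation between pools, and 12 of the 15 root counts came from replicate 3. Exact permutation tests of CPM (two-sided) gave p = 0.70 for stem against root, 0.40 for leaf against root and 1 for leaf against stem, where 0.10 is the smallest possible.

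The low-count filter removed TSARL1, so 1 of the 2 genes entered the main test. Without a filter, TSARL1 passed in no comparison: the adjusted p was 0.623 for stem against root, 0.171 for leaf against root and 0.432 for leaf against stem (edgeR). The unadjusted p values were 0.459, 0.0789 and 0.185. In that fit 6.53%, 14.2% and 4.10% of the 46576 genes were called lower in the first organ of each pair. DESeq2 gave an adjusted p of 0.802 for stem against root and none for the other comparisons. The order of root above stem rested on root replicate 3, without which the stem mean was 0.0276 CPM above that of root. The stem level came from stem replicate 1, the library that stood apart, and was 0 without it. The part of that library's other differences in this value was not tested.

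By their observed levels, TSARL1 and TSARL2 put the 3 root pools in opposite order. Root replicate 1 had the most TSARL2 and no count of TSARL1, whereas replicate 3 had the least TSARL2 and the most TSARL1. For TSARL1 the Poisson 95% interval was 0 to 3.69 counts in replicate 1 and 6.2 to 21.0 counts in replicate 3, again without the variation between pools. That of replicate 2, 0.619 to 8.77 counts, overlapped both. The TSARL2 intervals of replicates 2 and 3 overlapped too, so the place of replicate 2 in either order is unsure. The opposite order is a description of 3 pools, too few to test a relation.

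Per length, TSARL2 exceeded TSARL1 in 3 of 3 root libraries. In root replicate 1, TSARL2 was at 15.3 FPKM and TSARL1 at 0, over 85-fold higher when TSARL1 is set at 3 counts. In replicate 2 the FPKM ratio was 15.2 (5.19 to 73.6 from the Poisson interval of the 3 TSARL1 counts). In replicate 3 it was 2.47 (1.42 to 4.79 from the interval of the 12 counts). TSARL2 thus made up 93.8% of the summed FPKM of both genes in replicate 2 and 71.2% in replicate 3. The ranges of the ratios leave out the counting error of TSARL2. In replicate 3 the Poisson 95% intervals of the counts, 6.2 to 21.0 for TSARL1 and 20.2 to 42.8 for TSARL2, overlapped. Stem replicate 1 was the only library with the reverse order, with TSARL1 at 0.329 FPKM and TSARL2 at 0, where 3 counts would be 0.195 FPKM. The Poisson 95% intervals of these counts, 1.62 to 11.7 for TSARL1 and 0 to 3.69 for TSARL2, overlapped as well. An overlap of 2 separate intervals does not decide whether counting error could give the order, here or in root replicate 3. Neither order was tested.

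On a log2 scale with 0.1 FPKM added to each gene, the ratio of TSARL2 to TSARL1 was 7.27, 3.27 and 1.20 in the root libraries and -2.10, 0 and 0 in stem. It was 0 in every leaf library, and each ratio of 0 stands for a library in which neither gene had a count. The mean was 3.91 ± 3.09 in root and -0.70 ± 1.21 in stem (SD, n = 3). The root ratios lay above all others, with an exact permutation p of 0.10 against stem and against leaf (two-sided), the smallest possible. Every leaf ratio came from the added 0.1 FPKM, so the test against leaf compares no balance of the genes there. With 5 of the 6 stem and leaf libraries at 0 for both genes, the balance of the genes in the shoot was not measurable at this depth.

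The complete pattern of TSARL2, a count in all 3 root libraries and none in the other 6, was found in 425 of the 54238 genes (0.784%). By mean root CPM, TSARL2 ranked 47 among these genes, whose median was 0.492 CPM. Root replicate 1 was the highest root library for 256 of the 425, replicate 2 for 87 and replicate 3 for 82.

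The genes most like TSARL2 were picked for following its levels from library to library, so a high level in root replicate 1 is part of the choice. Likeness was the Pearson correlation of log2(CPM + 1) over the 9 libraries, among tested genes whose overall mean reached 1 CPM, and it describes libraries that share organs and pools. The 5 highest were AUR62016715, AUR62009996, AUR62029652, AUR62036570 and a gene without an AUR62 identifier, with r of 0.995 or above. No source used here gives their function.

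AUR62016715 was at 53.1, 4.07 and 3.10 CPM in root replicates 1, 2 and 3. AUR62009996 was at 14.6, 2.27 and 2.19 CPM there, the closest of the 5 to TSARL2 in level. AUR62036570 was at 29.2, 2.41 and 1.63 CPM. All 5 were highest in root replicate 1, by 5.81-fold to 13.1-fold over replicate 2. Outside root the 5 genes had 1 count in all, for AUR62009996 in leaf replicate 2. In all, 269 of 33127 genes correlated with TSARL2 above 0.9, and TSARL1 and TSARL2 correlated with each other at 0.115.

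The genes most like TSARL1, picked in the same way, were highest in root replicate 3, and for all 5 stem replicate 1 was the next highest library. The first was a gene without an AUR62 identifier (r = 0.951), at 18.9 CPM in root replicate 3 and 8.33 CPM in stem replicate 1, against 0.748 to 6.25 CPM in the other libraries. AUR62035776 (r = 0.939) was at 16.8 CPM in root replicate 3 and 2.80 CPM in stem replicate 1. The other 3 were AUR62016468, AUR62007408 and AUR62003916, and AUR62007408 ran from 49.9 to 79.0 CPM. All 5 genes had counts in every library. With 20 counts behind TSARL1, these correlations rest on 3 libraries.

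**Figure D4:**
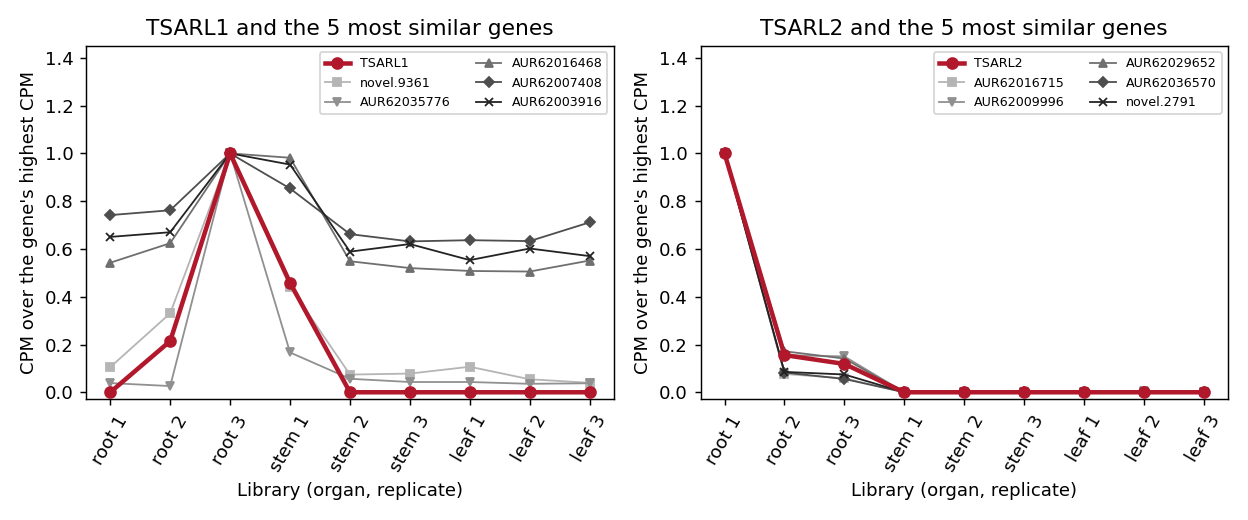
CPM in each library divided by the gene's highest CPM, for TSARL1 (left, red) and TSARL2 (right, red) with the 5 genes whose log2(CPM + 1) correlated best with each over 9 libraries (grey). The TSARL2 set falls from root replicate 1 to low values in root replicates 2 and 3 and to about 0 in stem and leaf; the TSARL1 set peaks in root replicate 3.

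None of the 11 identifiers nearest in number to the TSARL genes had counts in root alone. Identifier order is given as a label only, since no source used here places these genes on a chromosome. AUR62017205, the identifier between them, had 0 counts in all 9 libraries. Of the 11 (5 before, 1 between and 5 after), 7 had a count in every library.

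AUR62017203, just before TSARL1, had a mean of 26.5 ± 2.57 CPM in root, 17.2 ± 2.86 CPM in leaf and 11.4 ± 5.44 CPM in stem (SD, n = 3). AUR62017207, just after TSARL2, was at 11.1 ± 0.403 CPM in root, 15.1 ± 2.70 in stem and 12 ± 1.62 in leaf. AUR62017208 had the highest level of the 11, at 124 ± 20.2 CPM in leaf against 37.9 ± 2.82 in root. The root libraries of AUR62017207 ran from 10.8 to 11.5 CPM, whereas those of TSARL2 ran from 1.53 to 12.9 CPM.

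**Figure D5:**
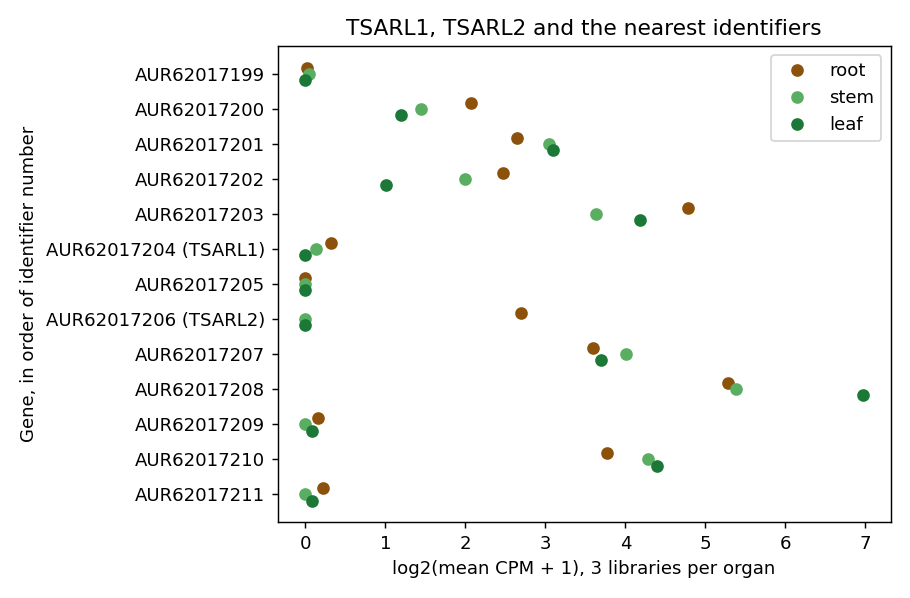
log2(mean CPM + 1) in root, stem and leaf (3 libraries each) for TSARL1, TSARL2 and the 11 nearest identifiers, in order of identifier number. TSARL2 has a root level (mean 5.49 CPM) with stem and leaf at 0, and AUR62017205 is at 0 in all organs.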

How the data were processed

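The authors deposited raw read counts per gene and FPKM values for the same 9 libraries, per the file headers. The submitters' processing notes name TopHat2 2.0.12 and Bowtie2 2.0.6. No source used here says how reads were counted, on which build and strand, or how multi-mapped reads were treated. The library size behind the deposited FPKM was 0.773 to 1.21 times the total count, so levels between libraries rest on counts, and FPKM serves to compare genes within a library and in the limma alternatives.

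The test of counts was edgeR 4.0.16 under R 4.3.3 (filterByExpr, TMM factors, 1 robust quasi-likelihood model of tissue over all 9 libraries). P-values were adjusted over all 36685 genes kept (Benjamini-Hochberg), with calls below 0.05. Their error is the variation among plant pools, estimated for each gene with information shared over genes. TSARL2 had 0 counts in stem and leaf, so its own spread came from the 3 root libraries alone. The procedure was tested on simulated data. Alternatives used DESeq2 1.42.0, limma 3.58.1 on log2 FPKM with 1 or 0.1 added, other factors and filters, a replicate block, 2 tissues alone, and each library left out.

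Per the labels' protocols, each biological replicate gave all 3 organs, and an equal replicate number was taken to mark the same pool. Over genes, deviations from the organ means correlated within the 9 same-numbered pairs at -0.139 to 0.097, with 0 above 0.1. Under this pairing the smallest exact permutation p with 3 pairs is 0.25. Intervals are exact Poisson 95% intervals.

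Besides both TSARL genes, the text names by rule the 5 genes most correlated with each, the 5 identifiers on either side and any between, from which examples are given. Members and lists were chosen with earlier results of these data known. Lists of pathway genes and organ markers could not be applied, since 0 of 54238 identifiers matched the RefSeq table of assembly ASM168347v1.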

Additional observations from a re-analysis of the deposited data

How the results depend on the processing

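TSARL2 kept its direction toward root in all 18 alternatives of each comparison with root. Against leaf it was called in 18 of 18. Against stem it was called in 17 of 18, and leaving out a library gave adjusted p from 0.0350 to 0.0635 without a root or stem library and 0.0297 to 0.0319 without a leaf library (edgeR). The exception was without root replicate 2. The unadjusted p there was 0.00723 (edgeR), against 0.00756 to 0.00791 without a stem library, where the call held. Every fit without a library had fewer samples, and the cause of the lost call was not tested. With the replicate block the adjusted p was 0.0399 for stem against root and 0.0243 for leaf against root (edgeR), and the block changed no call of TSARL2. The difference of 0.70 between leaf and stem in the log2 ratio of TSARL2 to TSARL1 (exact permutation p = 1) came from the 5 TSARL1 counts of stem replicate 1 alone. It was 0 without that library and at most 1.05 without another, and the other ratios of 0 come from the added 0.1 FPKM. The mean root level of TSARL2 ran from 1.77 to 7.47 CPM and that of TSARL1 from 0.0656 to 0.371 CPM when a root library was left out. Over all genes, the median log2 change was -0.07 in leaf against root and -0.07 in leaf against stem. With upper-quartile factors these medians were -0.24 and -0.17.

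Genes called lower in stem than in root fell from 3400 to 1212, 1333 and 2048 without root replicates 2, 1 and 3. Those higher fell from 4610 to 2361, 2535 and 3000. Genes lower in leaf than in root fell from 6845 to 4310, 4538 and 4494 without root replicates 2 and 1 and leaf replicate 1. Without stem replicate 1 they rose to 9641, and genes lower in stem than in root to 4546. Between leaf and stem, 2356 genes were called toward leaf and 2108 toward stem, against 4164 and 3647 with DESeq2, 1310 and 1169 with the replicate block, 771 and 800 with 2 tissues alone, and 725 and 702 at the least without a library. The cause of these shifts was not tested. TSARL1 did not pass the low-count filter, so the alternatives that use this filter, or ask for 1 CPM in 3 libraries, gave no test of it. TSARL1 had at most 12 counts in a library, which limits its precision.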
